A study of Mus musculus with 4 samples.

Results

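Integrin and laminin genes were followed in thymic epithelial cells (TECs) of mice after deletion of Meis1, a homeobox transcription factor gene. The members are the genes whose name on the array is an integrin alpha or beta chain or a laminin alpha, beta or gamma chain. These were 36 of the 21288 genes named on the array, 25 of them integrins and 11 laminins, with 80 of the 41174 probes on the array (60 integrin and 20 laminin probes). A further 6 genes with similar names, such as the integrin-binding proteins Itgb1bp1 and Itgb3bp and the integrin-like Itgb2l, are not chains and were left aside. Lamb1 carries the older name Lamb1-1 on the array.

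The Meis1-CKO mice were K14-CreERT2 Meis1fl/fl, with both Meis1 alleles floxed, and the controls were K14-CreERT2 Meis1fl/+, with 1 floxed allele, which the labels call WT. Mice of both genotypes carried the tamoxifen-inducible recombinase, driven by the promoter of keratin 14, and were injected at an age of 3 weeks with tamoxifen, 1 mg a day for 3 days. CD45- EpCAM+ cells were sorted 4 days after the treatment from digests already depleted with anti-CD45 and anti-Ter119 beads, and 10 ng of their RNA was amplified to cDNA. There were 2 Meis1-CKO pools and 2 control pools of 6 mice each, on 1 single-colour array per pool. The controls were thus not untreated wild-type mice, and they could lose 1 Meis1 allele. A pool also hides differences between its mice.

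Integrins are receptors made of an alpha and a beta chain that tie cells to the extracellular matrix or to other cells. Laminins are trimers of an alpha, a beta and a gamma chain and a main component of basement membranes. Epithelial cells bind laminin-332, of which Lama3 and Lamb3 encode chains, through the integrins alpha6-beta4, which anchors hemidesmosomes, and alpha3-beta1. Laminin-511 (Lama5, Lamb1 and Lamc1) is the common laminin of basement membranes. In the thymus, integrins of thymocytes and dendritic cells bind ligands that TECs display, such as VCAM-1, ICAM-1 and E-cadherin.

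Levels are given as log2 signal relative to each array's 75th percentile, so that 0 is a signal at that percentile and a step of 1 is 2-fold. The share of spots well above background was 58.6% to 63.6%, and none was saturated. Meis1-CKO 1 and control 1 shared a slide and a scan (slide 1), as did Meis1-CKO 2 and control 2 (slide 2), so that differences are also given within each slide. Meis1-CKO 2 stood apart, with correlations of 0.85 to 0.88 with the other arrays across features, while the other arrays correlated at 0.93 to 0.94 among themselves. The labelled cell type was checked against 9 epithelial markers, and all 9 were above background on all 4 arrays. The Meis1 probes could not check the genotype labels, since the floxed exons are not given in the sources used here.

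Of the 36 members, 29 were tested, since a genotype had them above background in each of its pools, 21 integrins and 8 laminins, and 23 of these were above background on all 4 arrays. A filter of this kind keeps a gene that is bright in 1 genotype alone. limma, fitted once over all 16801 features, called 0 of the 29 members at an adjusted p under 0.05, where it called 0.0% of all features. Every adjusted p of a member was 1. At an unadjusted p under 0.05 it picked 1 member, Itga11, beside 2.78% of all features. An exact permutation test of 2 against 2 pools cannot go below 0.333, and the limma values measure only the spread between these pools.

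Both Meis1-CKO arrays lay above both control arrays for 3 of the 29 members, Itgae, Itgam and Lama5, where 11.1% of all features did. Both lay below both control arrays for 6, Itga11, Itga3, Itga9, Itgb3, Lama4 and Lamb2, where 14.4% of all features did. The median log2 difference, Meis1-CKO minus control throughout, was -0.11 over the 21 integrins and -0.45 over the 8 laminins, beside -0.05 over all features. Within slides the laminin median was -0.32 on slide 1 and -0.48 on slide 2, and the integrin median -0.11 and -0.32. Over all features the median was 0.00 on slide 1 and -0.12 on slide 2. With each array left out in turn, which leaves the slides unmatched, the laminin median ranged between -1.09, without Meis1-CKO 1, and 0.30, without control 1. Without Meis1-CKO 2 it was 0.24. Fewer cells of a type and less RNA per cell cannot be told apart in such pooled samples.

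The plot of differences on each slide shows how the members lay. Lower in Meis1-CKO than in control on both slides were 6 of the 8 laminins and 8 of the 21 integrins, beside 26.5% of all features. Higher on both slides were 2 laminins and 5 integrins, beside 20.4% of all features. All 5 of these integrins belong to the leukocyte group, while the 8 that read lower hold 3 laminin receptors, Itga3, Itga6 and Itgb4, and 1 chain of the leukocyte group, Itga9.

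Epithelial markers also read lower on slide 2. All 9 were lower in Meis1-CKO than in control there, with a median difference of -0.70, against 4 of 9 and a median of 0.03 on slide 1. The keratin genes Krt5 and Krt14 were lower on both slides, with differences of -0.84 and -0.69 for Krt5 and -0.80 and -0.71 for Krt14. The summed linear signal of the 9 markers, in multiples of the 75th percentile, was 282 and 162 in Meis1-CKO 1 and 2, against 351 and 265 in control 1 and 2. The 11 tested markers of cortical TECs had a median difference of -0.08 on slide 1 and -1.16 on slide 2. For the 13 tested markers of medullary TECs, Krt5 and Krt14 among them, it was 0.03 and -0.54. Of these 13, 8 were higher in Meis1-CKO on slide 1, and 11 were lower on slide 2. The part of this shift in the values of the laminins and their receptors was not tested.

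**Figure D1:**
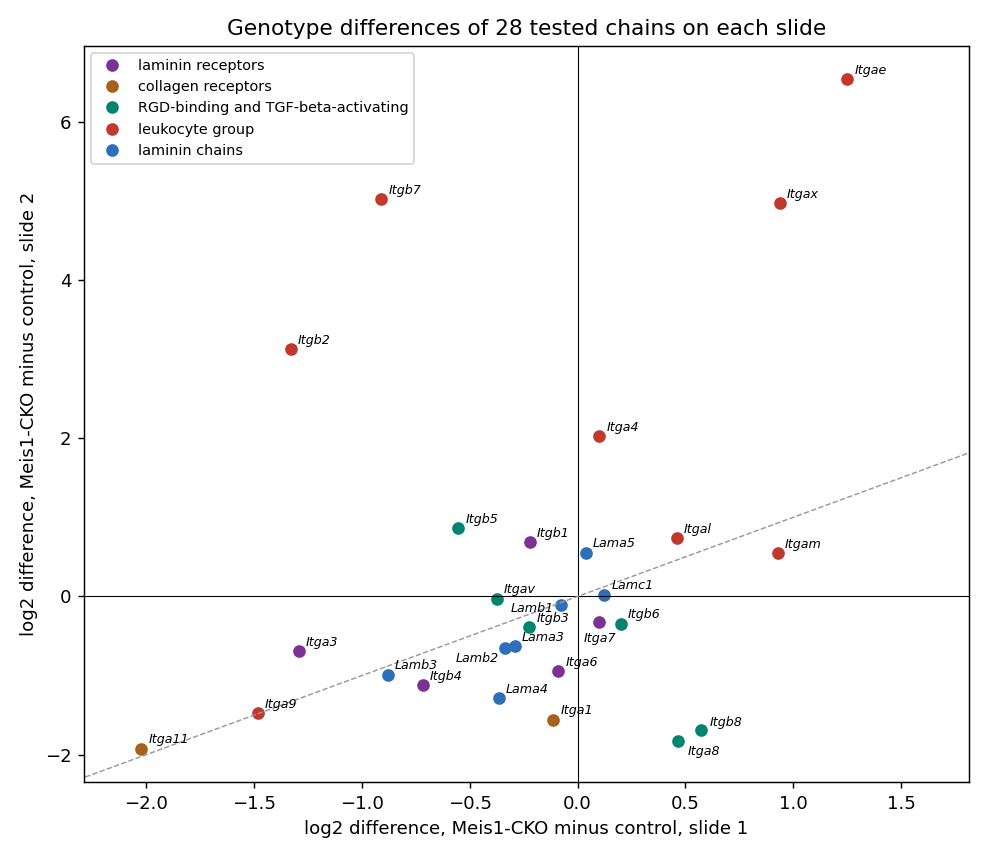
Log2 difference of Meis1-CKO minus control on slide 1 (x axis) and slide 2 (y axis) for 28 of the 29 tested integrin and laminin chains, coloured by role, with a dashed line of equal values. The laminin chains lie from -0.88 to 0.12 on slide 1 and from -1.29 to 0.55 on slide 2, while Itgae, Itgb7, Itgax and Itgb2 lie above 3 on slide 2.

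Among the laminin receptors, Itga3 was the chain whose groups did not overlap by its brightest probe. Dimmer probes of Itgb4 and Itga6 were separated in the same direction, and other dim probes of Itgb4 and Itgb1 in the opposite direction. Itga3 encodes the alpha3 chain, which pairs with beta1 to bind laminin-332 and laminin-511. Its brightest probe lies on the minus strand at chr11:94915485-94917062 on mm9, its 60 bases split over 1578 bases of genome, and is shown because the difference rests on it.
Itga3: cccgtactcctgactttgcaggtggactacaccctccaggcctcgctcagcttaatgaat

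Itga3 read 0.98 and 0.90 in Meis1-CKO 1 and 2, against 2.27 and 1.59 in control 1 and 2. Both Meis1-CKO pools were low and close together, and below both control pools. Their log2 difference was -0.99 (SE 0.47, limma adjusted p = 1, n = 2 pools each), of which slide 1 gave -1.29 and slide 2 -0.69. The gene has 3 probes, all tested, with differences of -0.99, -0.94 and -0.78, each with both Meis1-CKO arrays below both control arrays.

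Itgb4, the beta4 chain of hemidesmosomes, read 1.72 and 0.52 in Meis1-CKO 1 and 2, against 2.44 and 1.64 in control 1 and 2. Each Meis1-CKO pool was below the control pool of its slide, but Meis1-CKO 1 lay above control 2, so that the groups overlapped. Itgb4 had a log2 difference of -0.92 (SE 0.60, n = 2 pools each), with -0.72 on slide 1 and -1.13 on slide 2. It was -0.32 without Meis1-CKO 2, -0.53 without control 1 and -1.52 without Meis1-CKO 1. The second probe shares 50 of its 60 bases with the first and repeats the value at -0.92, so that it is not a separate measurement. By that probe the groups did not overlap, at 0.86 and 0.01 in Meis1-CKO 1 and 2, against 1.64 and 1.06 in control 1 and 2. The third, further upstream in the gene, was above background in both Meis1-CKO pools and neither control pool, at least 1.38-fold higher, and the mean over the 3 probes was -0.46.

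Itga6, which encodes the alpha6 chain that pairs with beta4 and beta1, read 3.39 and 1.96 in Meis1-CKO 1 and 2, against 3.48 and 2.90 in control 1 and 2. Meis1-CKO 2 alone was low. Itga6 had a log2 difference of -0.52 (SE 0.63, n = 2 pools each), with -0.09 on slide 1 and -0.94 on slide 2, and without Meis1-CKO 2 it was 0.20. The other probes gave -0.53 and -0.84. By the one at -0.84 both Meis1-CKO pools, at 1.55 and 0.23, were below both control pools, at 1.85 and 1.61.

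Itgb1, the beta1 chain shared by most matrix-binding integrins, read 2.50 and 1.7 in Meis1-CKO 1 and 2, against 2.72 and 1.02 in control 1 and 2. By this brightest probe both pools of slide 1 were high and both of slide 2 low. Itgb1 had a log2 difference of 0.23 (SE 0.71, n = 2 pools each), with -0.22 on slide 1 and 0.69 on slide 2. Itga7, the alpha7 chain best known from muscle, had a difference of -0.11 (SE 0.49).

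**Figure D2:**
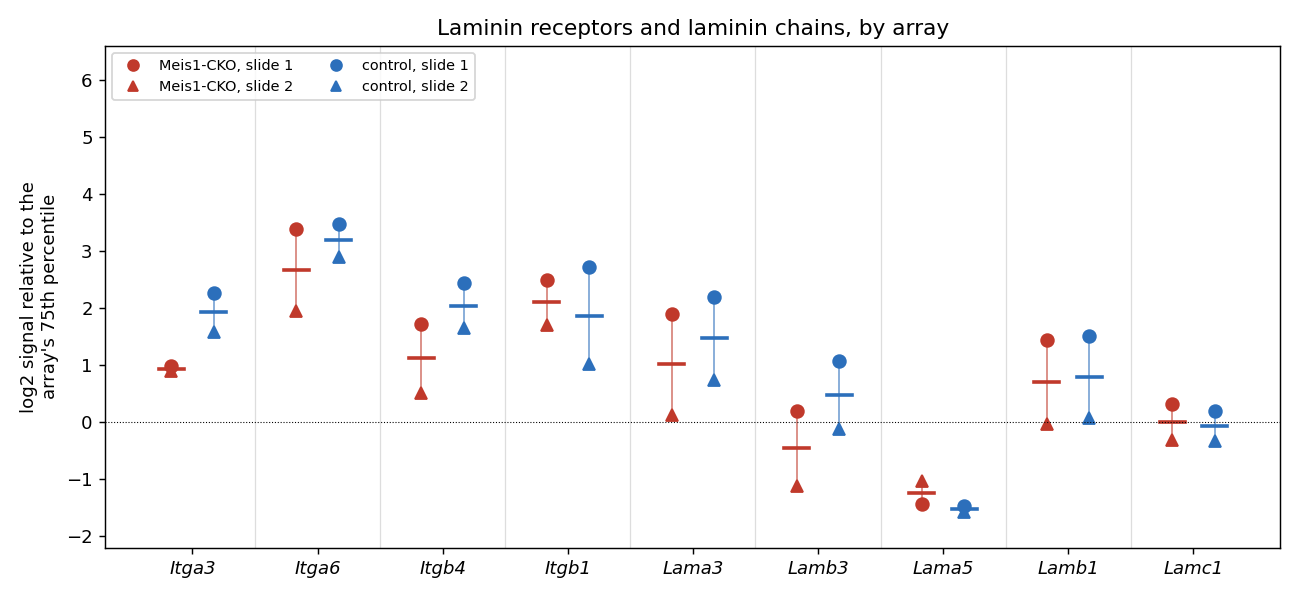
Log2 level by array of the laminin receptor chains Itga3, Itga6, Itgb4 and Itgb1 and the laminin chains Lama3, Lamb3, Lama5, Lamb1 and Lamc1, Meis1-CKO in red left of control in blue, with circles for slide 1, triangles for slide 2 and a bar at the mean of 2 pools. In Lama3, Lamb3 and Lamb1 both circles lie above both triangles, while in Itga3 both red points, at 0.98 and 0.90, lie below both blue ones.

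Lama3 and Lamb3, chains of laminin-332, each read lower in Meis1-CKO than in control on both slides, by less than the step between the slides. The Lamb3 probe lies on the plus strand at chr1:195167088-195167147 on mm9, and is shown because the larger of these 2 differences rests on it.
Lamb3: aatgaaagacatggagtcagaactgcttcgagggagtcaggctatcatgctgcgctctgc

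Lamb3, the beta3 chain, read 0.20 and -1.12 in Meis1-CKO 1 and 2, against 1.08 and -0.13 in control 1 and 2. Within each slide the Meis1-CKO pool was the lower, but Meis1-CKO 1 lay above control 2. The log2 difference was -0.94 (SE 0.68, n = 2 pools each), and it was alike on the slides, at -0.88 and -0.99. Leaving out 1 array, which leaves the slides unmatched, moved it to -0.28 without Meis1-CKO 2, -0.33 without control 1, -1.54 without control 2 and -1.59 without Meis1-CKO 1. With the slide as a block its SE was 0.42 and the limma unadjusted p was 0.0862.

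Lama3, the alpha3 chain that the integrins bind, read 1.90 and 0.12 in Meis1-CKO 1 and 2, against 2.19 and 0.75 in control 1 and 2. The pools of slide 1 were high, those of slide 2 low, and the genotypes overlapped. The log2 difference was -0.46 (SE 0.81), with -0.29 on slide 1 and -0.63 on slide 2. Leaving out Meis1-CKO 2, which leaves the slides unmatched, turned it to 0.43.

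The laminin-511 chains differed less between the genotypes. Lama5, the alpha5 chain, read -1.44 and -1.03 in Meis1-CKO 1 and 2, against -1.48 and -1.58 in control 1 and 2. Both Meis1-CKO pools were above both control pools, on slide 1 by 0.04 only, and the log2 difference was 0.30 (SE 0.44). Lamb1, the beta1 chain, read 1.44 and -0.02 in Meis1-CKO 1 and 2, against 1.51 and 0.08 in control 1 and 2. Lamc1, the gamma1 chain of most laminins, read 0.33 and -0.31 in Meis1-CKO 1 and 2, against 0.20 and -0.33 in control 1 and 2. In both genes the genotypes overlapped and the pools of slide 1 were the high ones. The log2 differences were -0.09 (SE 0.75) for Lamb1 and 0.07 (SE 0.49) for Lamc1, with 95% intervals of -1.96 to 1.77 and -1.15 to 1.29.

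Of the other laminins, Lama4, a chain of vessel and mesenchymal basement membranes, read 0.01 and -1.13 in Meis1-CKO 1 and 2, against 0.38 and 0.16 in control 1 and 2. Both Meis1-CKO pools were below both control pools, with Meis1-CKO 2 the lowest, and the difference was -0.83 (SE 0.55), or -0.26 without Meis1-CKO 2. The other tested Lama4 probe, whose coordinates overlap those of the first, gave -0.96 and was separated as well. An untested probe, above background on 1 Meis1-CKO array alone, was 1.16 higher in Meis1-CKO on slide 1 and 2.16 lower on slide 2. A further untested probe, above background on 1 array of each genotype, gave -1.07. Levels of the fibroblast and mesenchymal marker list, with 8 of its 12 genes tested, had medians of 1.19 and 0.09 in Meis1-CKO 1 and 2, against 1.85 and 0.99 in control 1 and 2. Their linear signals, in multiples of the 75th percentile, summed to 94.1 and 91.8 in Meis1-CKO 1 and 2, against 108 and 77.0 in control 1 and 2. Acta2, the smooth muscle actin gene, made 73.9 of the sum in Meis1-CKO 2. The other 7 genes summed to 59.4 and 17.9 in Meis1-CKO 1 and 2, against 65.7 and 38.2 in control 1 and 2. Rgs5 was the brightest of these 7 on every array and weighs on that sum. Its log2 level was 5.51 and 3.26 in Meis1-CKO 1 and 2, against 5.63 and 4.68 in control 1 and 2. The endothelial marker list, with 5 of its 11 genes tested, had a median difference of 0.15, with 0.39 on slide 1 and 0.62 on slide 2. On each slide 3 of the 5 read higher in Meis1-CKO and 2 lower. The part of either list in the Lama4 value was not tested. Lamb2, the beta2 chain of synaptic and kidney basement membranes, had a difference of -0.49 (SE 0.43), and was above background on 3 arrays.

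The step between the slides was larger than that between the genotypes for several of these chains, in the same direction in both genotypes. The log2 level on slide 2 minus that on slide 1 was -1.78 in Meis1-CKO and -1.45 in control for Lama3, -1.46 and -1.43 for Lamb1, and -1.32 and -1.21 for Lamb3. Lamc1 had steps of -0.63 and -0.53, while those of Lama5 were 0.41 in Meis1-CKO and -0.10 in control. Lama3, Lamb3 and Lamb1 were thus more than 2-fold lower on slide 2 in either genotype.

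Slide 2 lay below slide 1 in both genotypes by 2-fold or more in the mean for 4 of the 8 laminins, Lama3, Lamb1 and Lamb3 among them, and for 7 of the 21 integrins, where 7.77% of all features did. The integrins were Itgav, Itga11, Itga1, Itga6, Itga9, Itgb1 and Itgb8. The step in control was only -0.15 for Itgb8 and -0.57 for Itga6. Of the 3 Itgb1 probes, only the brightest had Meis1-CKO 2 below Meis1-CKO 1. In the limma fit with both genotype and slide, 0 features passed an adjusted p of 0.05 for the slide, 0.0% of all, and the members' lowest adjusted p was 0.732. At an unadjusted p under 0.05 for the slide stood 8 members, among them Lama3, Lamb1, Lamb3, Itgax, Itga11, Itga1 and Itga9, beside 6.03% of all features. Slide 2 lay above slide 1 in both genotypes by 2-fold or more in the mean for Itgae, Itgax, Itga4 and Itgb2, where 6.88% of all features did, although the step in control was 0.05 for Itgae and 0.08 for Itgb2. The series design speaks of 2 independent experiments, which are not tied to array numbers in the labels. Slide, scan and replicate number coincide, and may coincide with the experiment, so that which of them the step follows cannot be told apart.

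**Figure D3:**
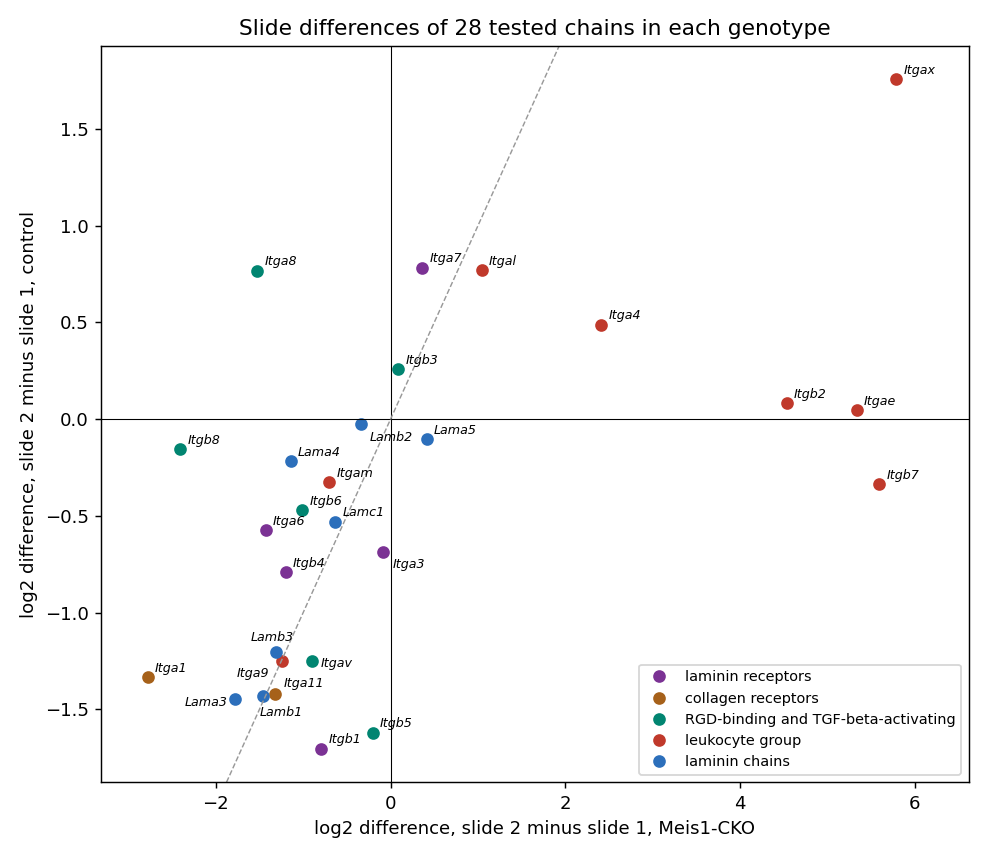
Log2 difference of slide 2 minus slide 1 in Meis1-CKO (x axis) and in control (y axis) for 28 of the 29 tested chains, coloured by role, with a dashed line of equal values and different axis ranges. Lama3, Lamb1 and Lamb3 lie near the line between -1.21 and -1.78, while Itgb7, Itgae and Itgb2 lie above 4 in Meis1-CKO and between -0.33 and 0.08 in control.

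Of the 8 tested integrins of the leukocyte group, 6 read highest in 1 Meis1-CKO pool, Meis1-CKO 2, while Itgam was highest in Meis1-CKO 1 and Itga9 in control 1. These chains serve adhesion and migration of blood cells: Itgb2 is the common beta2 chain, Itgax the CD11c chain of dendritic cells, and Itgae (CD103) pairs with Itgb7 to bind E-cadherin. On slide 2, 5 of the 8 tested members of the group, Itgae, Itgax, Itga4, Itgb2 and Itgb7, were 2-fold or more higher in Meis1-CKO than in control, where 11.3% of all features were. On slide 1 only Itgae was, beside 8.55% of all features, and Itgb2 was 2-fold or more lower, as were Itga3, Itga9 and Itga11 of all members, where 5.91% of features were. The median difference of the group was 0.28 on slide 1 and 2.57 on slide 2, and without Meis1-CKO 2 it was -0.04. Without Meis1-CKO 1, limma called 4 members, beside 1.89% of all features, with Meis1-CKO 2 then assumed to vary like the control arrays. These were Itgae at 6.56 (limma adjusted p = 0.0313), Itgax at 5.85 (0.0333), Itgb7 at 4.85 (0.0333) and Itgb2 at 3.16 (0.0431).

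Itgae has 2 probes on the plus strand of chromosome 11, at chr11:72945236-72946221 and chr11:72959105-72960563 on mm9, the 60 bases of each split over a longer stretch of genome. They are shown because both were above background in Meis1-CKO pools and in no control pool.
Itgae, the probe that stands for the gene: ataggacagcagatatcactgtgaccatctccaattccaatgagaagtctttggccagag
Itgae, the other probe: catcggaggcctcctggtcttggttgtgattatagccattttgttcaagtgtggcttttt

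The first of these Itgae probes read -3.16 and 2.18 in Meis1-CKO 1 and 2, against -4.41 and -4.36 in control 1 and 2. It was above background in both Meis1-CKO pools and in neither control pool, with Meis1-CKO 2 far above Meis1-CKO 1. The fold was at least 7.69-fold higher, and the log2 difference was 3.89 (SE 1.66, limma adjusted p = 1, n = 2 pools each). Slide 1 gave 1.25 and slide 2 gave 6.54. The other probe was above background in Meis1-CKO 2 alone, with -4.41 and 2.37 in Meis1-CKO 1 and 2, against -4.58 and -3.94 in control 1 and 2, at least 5.33-fold higher. Without Meis1-CKO 2 the log2 difference of the first probe was 1.23, and with normexp background correction of all arrays it was 1.79.

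Itgb7, the partner of Itgae and of Itga4, read -1.55 and 4.04 in Meis1-CKO 1 and 2, against -0.64 and -0.98 in control 1 and 2. Meis1-CKO 2 was the highest array and Meis1-CKO 1 the lowest, so that the controls lay between them. The log2 difference was 2.05 (SE 1.74), with -0.91 on slide 1 and 5.02 on slide 2, and -0.74 without Meis1-CKO 2.

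Itgb2 also had Meis1-CKO 2 as the highest and Meis1-CKO 1 as the lowest array, at -0.80 and 3.74 in Meis1-CKO 1 and 2, against 0.53 and 0.62 in control 1 and 2. Its difference was 0.90 (SE 1.43), with -1.33 on slide 1 and 3.12 on slide 2, and -1.37 without Meis1-CKO 2. Itgax read -2.82 and 2.97 in Meis1-CKO 1 and 2, against -3.76 and -2.0 in control 1 and 2, and was above background on all arrays but 1 of the control arrays. Meis1-CKO 2 was again high, and Meis1-CKO 1 lay between the controls. The Itgax difference was 2.95 (SE 1.87), with 0.94 on slide 1 and 4.97 on slide 2, and was 0.06 without Meis1-CKO 2 and 1.77 with normexp background correction.

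Itga4, the alpha4 chain that binds VCAM-1 and MAdCAM-1, read -1.54 and 0.87 in Meis1-CKO 1 and 2, against -1.64 and -1.16 in control 1 and 2. Its difference was 1.06 (SE 0.85), with 0.10 on slide 1 and 2.02 on slide 2, and it was -0.14 without Meis1-CKO 2. Its other 5 probes were not tested. Of these, 3 were above background in Meis1-CKO 2 alone, 1 of them at least 1.27-fold higher in Meis1-CKO. A further probe, above background in Meis1-CKO 2 and 1 control pool, read -4.38 and 1.40 in Meis1-CKO 1 and 2, against -2.72 and -3.67 in control 1 and 2. The last was not well above background on any array.

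In Itgal and Itgam, alpha chains that pair with Itgb2, Meis1-CKO 1 was not the lowest array, unlike in Itgb2 and Itgb7. Nor was it the lowest in Itgae, Itgax and Itga4. Itgal (CD11a) read 0.56 and 1.61 in Meis1-CKO 1 and 2, against 0.10 and 0.87 in control 1 and 2, a difference of 0.60 (SE 0.57). Itgam (CD11b) read 1.34 and 0.64 in Meis1-CKO 1 and 2, against 0.42 and 0.09 in control 1 and 2, a difference of 0.74 (SE 0.48). Both Itgam values of Meis1-CKO were above both control values, with Meis1-CKO 1 the higher of them, and its second probe was not well above background on any array.

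Leukocyte markers were high on the same array. Ptprc, which encodes CD45, the antigen used to deplete and gate out blood cells, read -0.75 and 5.56 in Meis1-CKO 1 and 2, against 1.44 and 1.19 in control 1 and 2. All 9 pan-leukocyte markers were above background on all 4 arrays, and none was at 0. Their linear signals summed to 30.6 and 158 in Meis1-CKO 1 and 2, against 37.1 and 39.8 in control 1 and 2.

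The 16 tested myeloid and dendritic markers summed to 37.0 and 168 in Meis1-CKO 1 and 2, against 32.6 and 41.7 in control 1 and 2. The 18 tested thymocyte and T cell markers summed to 10.2 and 58.0 in Meis1-CKO 1 and 2, against 60.2 and 24.5 in control 1 and 2. Meis1-CKO 2 thus had the highest sum for the pan-leukocyte and myeloid lists, as it read highest for Itgb2, Itgb7 and Itgax. Meis1-CKO 1 had the lowest sum for the pan-leukocyte and T cell lists. Dntt alone read 5.13 in control 1, against 3.49 in Meis1-CKO 2, and weighs on the T cell sum. By list median Meis1-CKO 2 was the highest array for T cell markers too, at 0.50. Meis1-CKO 1 was at -1.83, and control 1 and 2 at 0.24 and -0.63. On slide 2, 16 of the 18 read higher in Meis1-CKO, while 14 read lower on slide 1. The part of such cells in the integrin values was not tested.

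**Figure D4:**
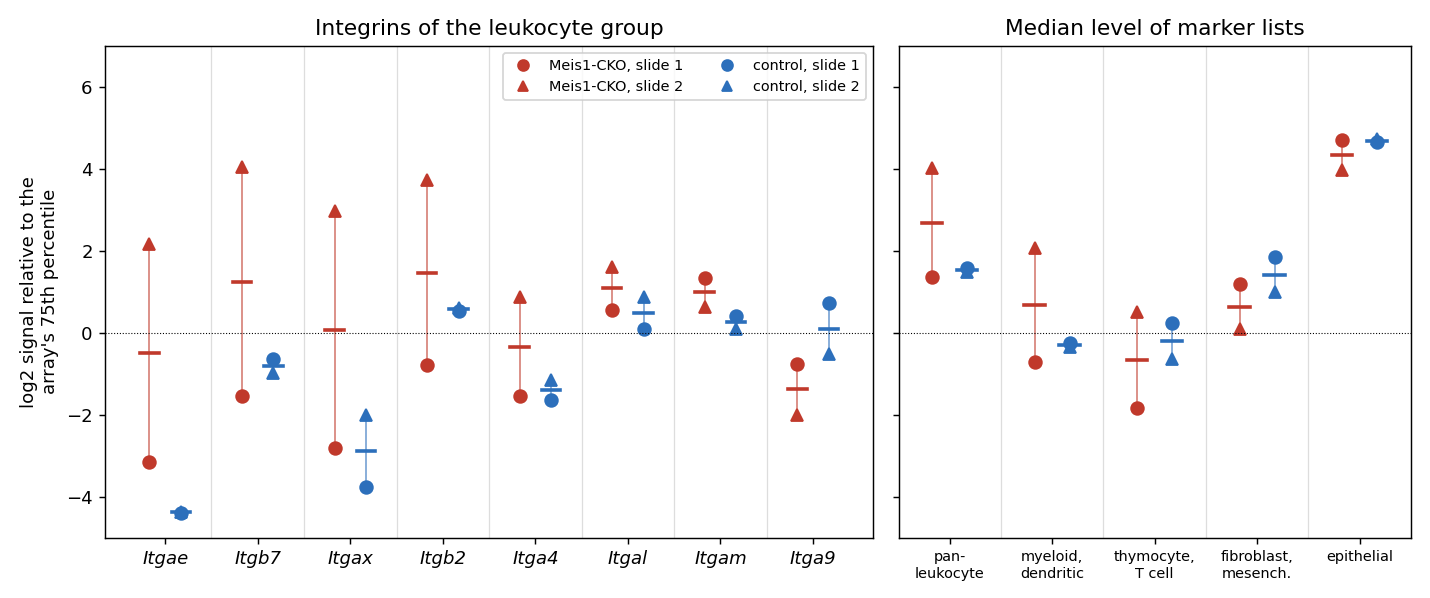
Left, log2 level by array of the 8 tested integrins of the leukocyte group; right, median log2 level of the tested genes of 5 marker lists, Meis1-CKO in red left of control in blue, circles for slide 1, triangles for slide 2 and a bar at the mean. The red triangle, Meis1-CKO 2, stands highest in Itgae, Itgb7, Itgax and Itgb2. It also stands highest in the pan-leukocyte (4.02), myeloid (2.08) and T cell (0.50) lists, and lowest in the epithelial list (3.98).

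Itga9 and Itga11 were the members with separated arrays and at least a 2-fold lower level, where 3.95% of all features had both, as Itgae was the member with at least a 2-fold higher one, beside 3.35%. Itga9, an alpha chain that binds tenascin-C and VCAM-1 and that epithelia also make, read -0.75 and -2.0 in Meis1-CKO 1 and 2, against 0.73 and -0.52 in control 1 and 2. Both Meis1-CKO pools were below both control pools, and the pools of slide 2 were below those of slide 1. The difference was -1.48 (SE 0.68, limma adjusted p = 1), at -1.48 on slide 1 and -1.48 on slide 2. It was under 2-fold without Meis1-CKO 2 (-0.86), without control 1 (-0.86) and with normexp background correction (-0.88), and -2.10 without Meis1-CKO 1. With the slide as a block its SE was 0.42 and its limma unadjusted p 0.0223. The other Itga9 probe was not well above background on any array.

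Among the collagen receptors, Itga11, the alpha11 chain that binds fibrillar collagen and is known from fibroblasts, had 1 probe, above background in both control pools and in neither Meis1-CKO pool. It read -3.57 and -4.89 in Meis1-CKO 1 and 2, against -1.54 and -2.97 in control 1 and 2. Both Meis1-CKO pools were below both control pools, and the fold was at least 2.64-fold lower. The log2 difference was -1.98 (SE 0.72, limma unadjusted p = 0.0368, adjusted p = 1), and slide 1 gave -2.02 and slide 2 -1.93. With normexp background correction it was -0.35, on a scale where dim signals differ less. The median of the fibroblast and mesenchymal list, given above with Lama4, was lower in Meis1-CKO than in control within both slides as well. So was its sum without Acta2, while the sum with Acta2 was lower on slide 1 alone. By gene, the median difference was -0.14 on slide 1, with 3 higher and 5 lower, and -1.47 on slide 2, with 1 higher and 7 lower. The 3 higher on slide 1 were Col1a1 (1.09), Col1a2 (0.48) and Col3a1 (0.61). The part of the list in the Itga11 value was not tested.

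Itga1, the alpha1 chain of a collagen receptor, read -0.92 and -3.70 in Meis1-CKO 1 and 2, against -0.81 and -2.14 in control 1 and 2, a difference of -0.84 (SE 1.02). Its other tested probe gave 0.66, so that the gene has no settled direction. Itga2, the epithelial collagen receptor chain, and Itga10, known from cartilage, were above background on at most 1 array and were not tested.

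With the slide as a block, limma had 4 members at an unadjusted p under 0.05 for the genotype, Itgae, Itgax, Itga11 and Itga9, beside 3.94% of all features, and 0 at an adjusted p under 0.05.

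The integrins that bind RGD motifs, those that release TGF-beta from its latent complex among them, had differences between -0.68 and 0.16. Itgav, the alphav chain that pairs with beta1, beta3, beta5, beta6 and beta8, read 0.93 and 0.03 in Meis1-CKO 1 and 2, against 1.31 and 0.06 in control 1 and 2, a difference of -0.20 (SE 0.63). Itgb6, the epithelial beta6 chain, had a difference of -0.07 (SE 0.54), and Itgb5, the beta5 chain, 0.16 (SE 0.65). None of these showed separated arrays by its brightest probe. A dimmer Itgav probe did, with a difference of -1.51, while the other tested Itgav probes gave -0.11 and 0.11. The other tested Itgb6 probe gave -0.80, with -1.03 on slide 1 and -0.57 on slide 2, and its arrays overlapped.

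Itgb8, the beta8 chain that presents active TGF-beta, read 1.19 and -1.22 in Meis1-CKO 1 and 2, against 0.62 and 0.47 in control 1 and 2. Itga8, the alpha8 chain that binds nephronectin, read -1.03 and -2.56 in Meis1-CKO 1 and 2, against -1.50 and -0.73 in control 1 and 2. In both genes Meis1-CKO 2 was the lowest array and Meis1-CKO 1 lay above control 1. Within slides Itgb8 differed by 0.57 and -1.68 and Itga8 by 0.47 and -1.83, and every probe of both genes, 3 each, had this pair of signs. With Itga11, Itga1, Itga9, Itgb4 and Lama4 they make 7 members that were 2-fold or more lower in Meis1-CKO than in control on slide 2, where 17.1% of all features were.

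Itgb3, the beta3 chain of the vitronectin and platelet fibrinogen receptors, read 6.75 and 6.84 in Meis1-CKO 1 and 2, against 6.97 and 7.23 in control 1 and 2. Both Meis1-CKO pools were below both control pools, by little, with a difference of -0.31 (SE 0.43). The probe, at chr11:104528490-104528560 on the plus strand of mm9, holds an alternating run of 13 bases, shown in capitals in this 30-base stretch because it bears on what the probe measures.
Itgb3: ggacaattTGTGTGTGTGTGTatgggtggg

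The array has 5 other probes with a run of G and T at least as long, and 100% of them were above background on all 4 arrays, beside 50.6% of all probes. Whether the signal of this probe came from Itgb3 was not tested. The second Itgb3 probe gave 0.08, with 0.80 on slide 1 and -0.65 on slide 2. Itga2b, its platelet partner, was not above background on any array, and Itga5, the fibronectin receptor chain, was above it in Meis1-CKO 2 alone.

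The laminin chains that were not tested were Lama1, Lama2 and Lamc3, chains of embryonic, muscle and neural basement membranes. Of their 7 probes, 1, for Lama2, was above background on 1 control array, and the others on none. Over all 80 member probes, 38 were above background on all 4 arrays, 14 on none and 28 on some.

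Different probes of a gene gave a check on the choice of the brightest one. They read the same 4 pools, so they do not check the genotype difference itself. Some are not separate measurements, such as the Itgb4 probes that share 50 of their 60 bases. Among the 13 members with 2 or more tested probes, the probes had differences of the same sign in 9 and of unlike sign in 4, Itgav, Itga1, Itgb3 and Itgb4. Itga3 was lower in Meis1-CKO by all 3 probes on both slides, and Itgb8 and Itga8 had opposite signs on the slides by all of theirs. A further 13 of the 36 members, among them Itgb2, Itgb7, Lamb1, Lamb3 and Lama5, have a single probe and no such check.

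**Figure D5:**
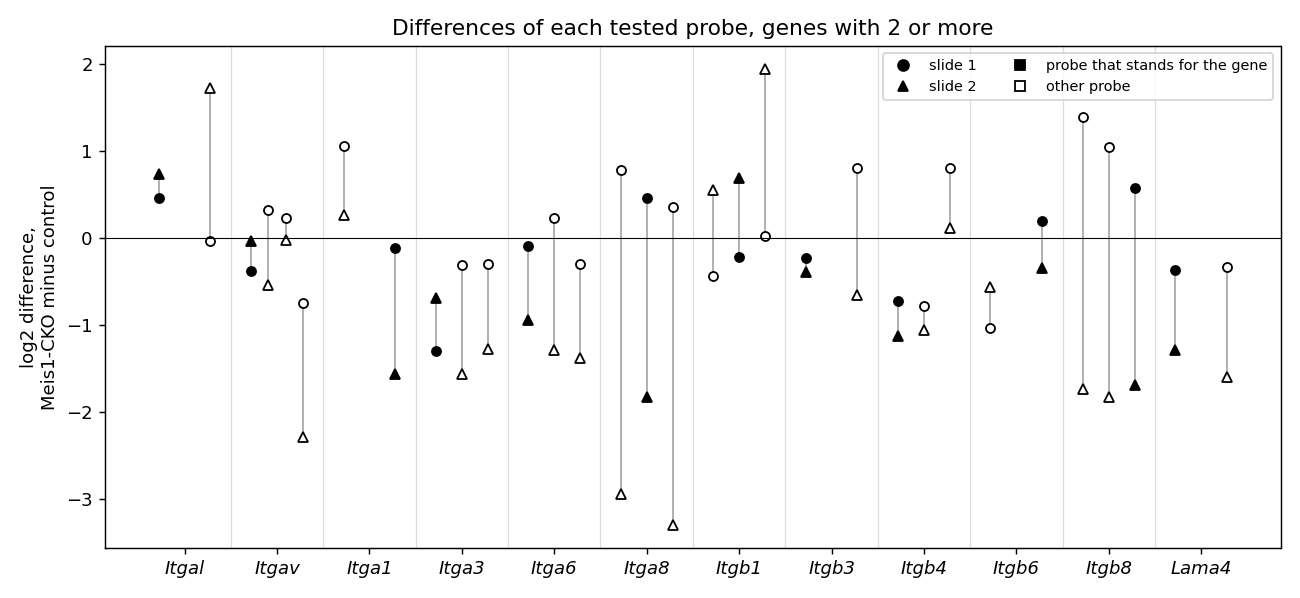
Log2 difference of Meis1-CKO minus control for each tested probe of 12 of the 13 members with 2 or more tested probes, circles for slide 1 and triangles for slide 2, filled for the probe that stands for the gene. All 3 Itga3 probes lie below 0 on both slides, while the probes of Itga8 and Itgb8 lie above 0 on slide 1 and below it on slide 2.

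Genes that work with these chains had no member past the test either. Of 30 genes of the integrin adhesome, the cytoplasmic proteins that link integrins to actin, 26 were tested, 0 passed, and their median difference was -0.07, with -0.38 on slide 1 and 0.22 on slide 2. Src, the tyrosine kinase, had a difference of -1.14 (SE 0.67), with separated arrays, and Arhgef7, a guanine nucleotide exchange factor at focal adhesions, -1.26 (SE 0.55). Fermt1, the epithelial kindlin that activates integrins, had -0.88 (SE 0.58), with 0.03 on slide 1 and -1.79 on slide 2. Tln2, a talin, had -2.13 (SE 1.43), with Meis1-CKO 2 not well above background.

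Of 29 genes of the basement membrane and hemidesmosome, 23 were tested, 0 passed, and the median was -0.20. On slide 1 it was 0.14, with 10 of the 23 lower in Meis1-CKO, and on slide 2 -0.46, with 19 lower, and without Meis1-CKO 2 it was 0.14. The 4 of smallest p were Frem2 (-0.85, SE 0.46), Nid2 (-1.37, SE 0.89), Tnc (-0.76, SE 0.53) and Fras1 (-0.92, SE 0.76). Nid2 had 0.08 on slide 1 and -2.82 on slide 2, and Tnc -0.10 and -1.42, while Frem2 had -1.27 and -0.43 and Fras1 -0.52 and -1.31. Fras1 and Frem2 encode partners in 1 complex beneath epithelia, Nid2 a nidogen that links laminin to collagen IV, and Tnc tenascin-C, a ligand of Itga9. Chosen for their place in the hemidesmosome after values were seen, Col17a1 had -0.44, Plec -0.05 and Dst -0.18.

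Of 15 ligands of leukocyte and RGD-binding integrins, 14 were tested, 0 passed, and the median was -0.30. On slide 1 it was 0.12, with 6 of the 14 lower in Meis1-CKO, and on slide 2 -0.72, with 11 lower, and without Meis1-CKO 2 it was 0.16. Icam2, a ligand of beta2 integrins, was above background in both Meis1-CKO pools and in neither control pool, at -3.15 and -3.17 in Meis1-CKO 1 and 2, against -4.88 and -3.83 in control 1 and 2. Madcam1, the mucosal ligand of alpha4-beta7, had -0.86 (SE 0.59), with 0.08 on slide 1 and -1.81 on slide 2. The fibrinogen chains Fga (-1.03, SE 0.55) and Fgg (-0.92, SE 0.57) had both Meis1-CKO arrays below both control arrays. Chosen as ligands of the members above after values were seen, Vcam1 had -0.69 (SE 0.59) and Cdh1, which encodes E-cadherin, -0.21 (SE 0.57). Vcam1 had -0.04 on slide 1 and -1.33 on slide 2, and Cdh1 0.34 and -0.76.

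Promoters of the members were searched for TGACAG, the core that MEIS proteins recognise, on both strands and without allowing for overlap with other motifs, in RefSeq windows of GRCm38.p6 of 250 bases before to 50 after a start. It was found in 7 of the 26 promoters that the table holds for 23 member genes (26.9%), beside 19.2% of all 32851 promoters. Itga11, the member with the lowest unadjusted p, is among them, with the reverse complement of the core, in capitals, starting 25 bases before the start at chr9:62677818-62677847 on the plus strand.
Itga11 promoter: tcctctgcgctgCTGTCAgggagctggagc

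The other genes with a match were Itga2b, Itga8, Itgb5, Itgb6 and Lama2, of which Itga2b and Lama2 were not tested. A match of letters is a description and no sign of binding.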

How the data were processed

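Each of 4 pools was measured on 1 single-colour Agilent array. The deposited scanner files hold linear spot intensity values, background-subtracted and spatially detrended, per the file headers, and not scaled between arrays. The software was Agilent Feature Extraction 9.5.3.1, per the submitters' processing notes. The deposited value table holds log2 values of the same arrays. Its differences between arrays followed those of the scaled scanner values over 20818 probes (slope 1, correlation 1), and its probes were centred on a median of 0. Its column medians were -0.06 and -0.12 for Meis1-CKO 1 and 2 and 0.04 and 0.09 for control 1 and 2, and no scale, centring or direction remained unknown.

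Control spots and 63 to 78 outlier spots per array were left out, each array's 75th percentile was subtracted from log2 processed signals, and repeat spots were averaged. Testing was limited to probes for which both arrays of either group had a signal well above background, and the probe of highest mean stood for its gene. Symbols were updated through the RefSeq table of GRCm38.p6, for 26792 probes by accession and 929 by synonym, while 6828 had none. Groups were compared with limma 3.58.1 in R 4.3.3 (lmFit and eBayes, 5.52 degrees of freedom in all) without a block, with Benjamini-Hochberg adjustment over all features, and the test was checked on simulated data. Precision is limited by the number of arrays. A fold against a group not well above background on any of its arrays is a bound. It sets the bright group's mean against, per array, whichever is higher of the dim probe's own signal and the lowest signal that passed as above background. Levels of different probes are not comparable.

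Alternatives were normexp background correction (offset 50), median and quantile scaling, other filters on dim probes, other uses of a gene's probes, outlier spots kept, the authors' value table, the replicate number as a block, and leaving out each array. Arrays of the same number deviated from their groups with a correlation of 0.13 across features, but neither the labels nor the series design, which speaks of 2 independent experiments, says what the numbers stand for, which is why that fit is an alternative. The fully described genes were set by a rule. They are chains of laminin-332 and laminin-511 and their receptors, and the leukocyte integrins Itgal, Itgam, Itgax, Itgae, Itgb2 and Itgb7. Other members joined them with an unadjusted p under 0.05, or with separated arrays and a 2-fold difference. Lama4, Itga1, Itga4, Itgav, Itga8, Itgb8 and Itgb3 are also given by array, outside this rule, and are not in the counts of gene values over the alternatives. Of other lists, up to 4 genes of smallest p are given. The members, lists and tests were chosen with earlier results of these data known. The results of 1 member are not reported here, although counts and medians over all members include it. Probe sequences and mm9 coordinates were taken from the array files.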

Additional observations from a re-analysis of the deposited data

How the results depend on the processing

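Under the alternatives that keep all 4 arrays, limma called 0 members and 0 features in each. The direction held there in 167 of 167 values of the fully described genes, which was largely fixed in advance. The other filters, probes as features, kept outlier spots and the block returned the same or nearly the same value from the same probe. The authors' table followed the scaled values, and median scaling shifts whole arrays. Only normexp, quantile scaling and the mean of probes could readily change a gene's value. With the replicate number, which is also the slide, as a block, 0 members and 0 features passed the adjusted threshold, and 4 members instead of 1 had an unadjusted p under 0.05. Members with both Meis1-CKO arrays below both control arrays numbered 3 instead of 6 with normexp background correction. With each of 50 probes as a feature, 12 lay below and 5 above, beside 6 and 3 of 29 genes, since more features were counted. The share over all features is not given under either setting, so these counts do not show whether the members stand out. normexp moved Itga11 to -0.35, Itga9 to -0.88, Itgae to 1.79 and Itgax to 1.77, and the mean of all probes moved Itgb4 to -0.46.

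Leaving out each array in turn leaves the slides unmatched and the lone array assumed to vary like the rest. Features called ranged over 0 to 317, all 317 (200 higher, 117 lower) without Meis1-CKO 1, and members called over 0 to 4. Members above ranged over 6 to 8 and below over 8 to 17, since fewer arrays need separating. These counts too have no share over all features beside them and do not show whether the members stand out. The integrin median ranged over -0.31 to 0.16 and the laminin median over -1.09 to 0.30. Of 68 gene values, 11 turned direction. Lama3 ranged over -1.35 to 0.43 and was 0.26 without control 1. Lamb1 ranged over -0.82 to 0.64, with 0.62 without control 1. Lamc1 ranged over -0.24 to 0.39, with -0.19 without control 2, and Itgb1 over -0.62 to 1.09, with -0.16 without Meis1-CKO 1. Itga6 ranged over -1.23 to 0.20, Itgb2 over -1.37 to 3.16 and Itgb7 over -0.74 to 4.85, each turned only without Meis1-CKO 2. Kept in direction, Itgb4 ranged over -1.52 to -0.32, Lamb3 over -1.59 to -0.28, Itga3 over -1.34 to -0.65, Itga9 over -2.10 to -0.86 and Itga11 over -2.69 to -1.26. The cause of these changes was not tested. Signal over background limits Itgae, Itgax and Itga11, which were dim on 1 or more arrays.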
